A study of Homo sapiens with 16 samples.

Results

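U4 is a small nuclear RNA of the spliceosome, and in the human genome it is transcribed from the genes RNU4-1 and RNU4-2. Both are described here through reverse-transcription stops, and a position belongs to U4 when the deposited tables give it the symbol RNU4-1 or RNU4-2. The tables list 108 such positions, 51 of RNU4-1 and 57 of RNU4-2, of 719918 positions in all genes. The 16 libraries were made from polyadenylated RNA, selected with oligo(dT) beads and fragmented to about 250 nucleotides, and fall into 8 groups of 2 replicates. HEK293T, a human embryonic kidney line labelled wild type, was treated with CMC plus Terminator, with CMC alone, or with neither. HCT116-shDKC1 is the HCT116 line with a short hairpin against DKC1, 1 hairpin in the labels, and was treated with CMC plus Terminator or with neither. HCT116, a human colorectal carcinoma line labelled wild type, was treated with CMC plus Terminator, with CMC alone, or with neither. The labels also give the libraries with Terminator an additional adapter and a restriction enzyme step that the other libraries lack, so a comparison of CMC plus Terminator with no treatment contains all of these changes and cannot be split by step.

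CMC is a carbodiimide that leaves a stable adduct on pseudouridine, where reverse transcriptase stops. Terminator degrades RNA molecules whose 5′ end is a monophosphate. DKC1 encodes dyskerin, the enzyme of the H/ACA ribonucleoproteins, which use guide RNAs to convert chosen uridines of ribosomal and spliceosomal RNA to pseudouridine. U4 pairs with U6 in the U4/U6 and tri-snRNP particles and holds U6 inactive until the helicase SNRNP200 unwinds the duplex. Human U4 is known to carry pseudouridine at nucleotides 4, 72 and 79. U4 has no poly(A) tail of its own, so the reads described here come from U4 present in oligo(dT)-selected preparations.

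The transcripts of both genes are shown because every result below refers to a nucleotide of them, counted from 1 at the 5′ end. Each is 141 nucleotides long, lies as a single noncoding exon on the minus strand of chromosome 12 and is written here 5′ to 3′ in DNA letters from the GENCODE 29 transcripts, with nucleotides 4, 72 and 79 in capitals. RNU4-1 (ENSG00000200795.1) is at chr12:120293097-120293237 and RNU4-2 (ENSG00000202538.1) at chr12:120291763-120291903 in build hg38.
RNU4-1: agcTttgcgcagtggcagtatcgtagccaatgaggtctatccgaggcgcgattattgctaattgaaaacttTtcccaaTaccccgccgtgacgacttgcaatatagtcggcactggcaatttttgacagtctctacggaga
RNU4-2: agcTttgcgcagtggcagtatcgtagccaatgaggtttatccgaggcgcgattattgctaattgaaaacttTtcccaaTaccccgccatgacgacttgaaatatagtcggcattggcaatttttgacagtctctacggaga
The copies differ at 4 nucleotides, C37T, G88A, C99A and C113T, with the base of RNU4-1 first. The 31 bases around nucleotides 4 and 72 that the tables print are identical in both copies, and those around nucleotide 79 differ by G88A. How reads that match both copies were counted is not given in the sources used here, so values of RNU4-1 and RNU4-2 are not independent measurements, and their split between the copies is uncertain. The 31 bases around nucleotide 4 also occur at 7 other listed positions, and those around nucleotide 72 and nucleotide 79 at none.

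The library totals behind the authors' RPM values (reads scaled to library total) ran from 8653000 to 31262000 reads. Untreated HCT116 libraries were deposited as a second count of 8940000 and 10230000 reads beside the CMC libraries, and as a count of 27272000 and 31262000 reads beside the Terminator libraries. In the tables, a position was listed with at least 5 stop reads in the treated library, at least 1 in the untreated library and, but for a handful of positions, a stop ratio in the treated library not below that of the untreated library. A treated library above its untreated library is therefore the condition of entry and not a result, and only the size of the difference carries information in those comparisons. Of 9 marker genes of colorectal epithelial cells, 5 had a listed position in HCT116, 6 in shDKC1 and 2 in HEK293T, and of 5 marker genes of HEK293T, 4 had one in HEK293T, 0 in HCT116 and 1 in shDKC1.

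Stops in U4 were concentrated at a few nucleotides, and 80 of the 108 positions appeared in at most 3 of the 10 tables. Only 8 positions, nucleotides 3, 4, 72 and 79 of both copies, were listed in all 10. Of the 78 uridines of both copies together, 37 were listed, and of the 204 other bases, 71. The listed positions spanned nucleotides 3 to 106, and none was listed further 3′. The stop percent, the stop reads at a position as a share of the reads covering it, was highest at nucleotide 72 or 79 in 16 of the 20 pairs of a treated library and a copy. In the other 4 pairs the highest value was at nucleotide 3, a cytidine, 3 of them in HCT116 with CMC alone. Copies in the same library are not independent, so these pairs are not replicates. Outside nucleotides 3, 4, 70, 71, 72, 78 and 79, the median stop percent of the listed positions lay between 3.63 and 9.24 in every treated library and copy that listed any, and the highest single value was 28.8.

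**Figure D1:**
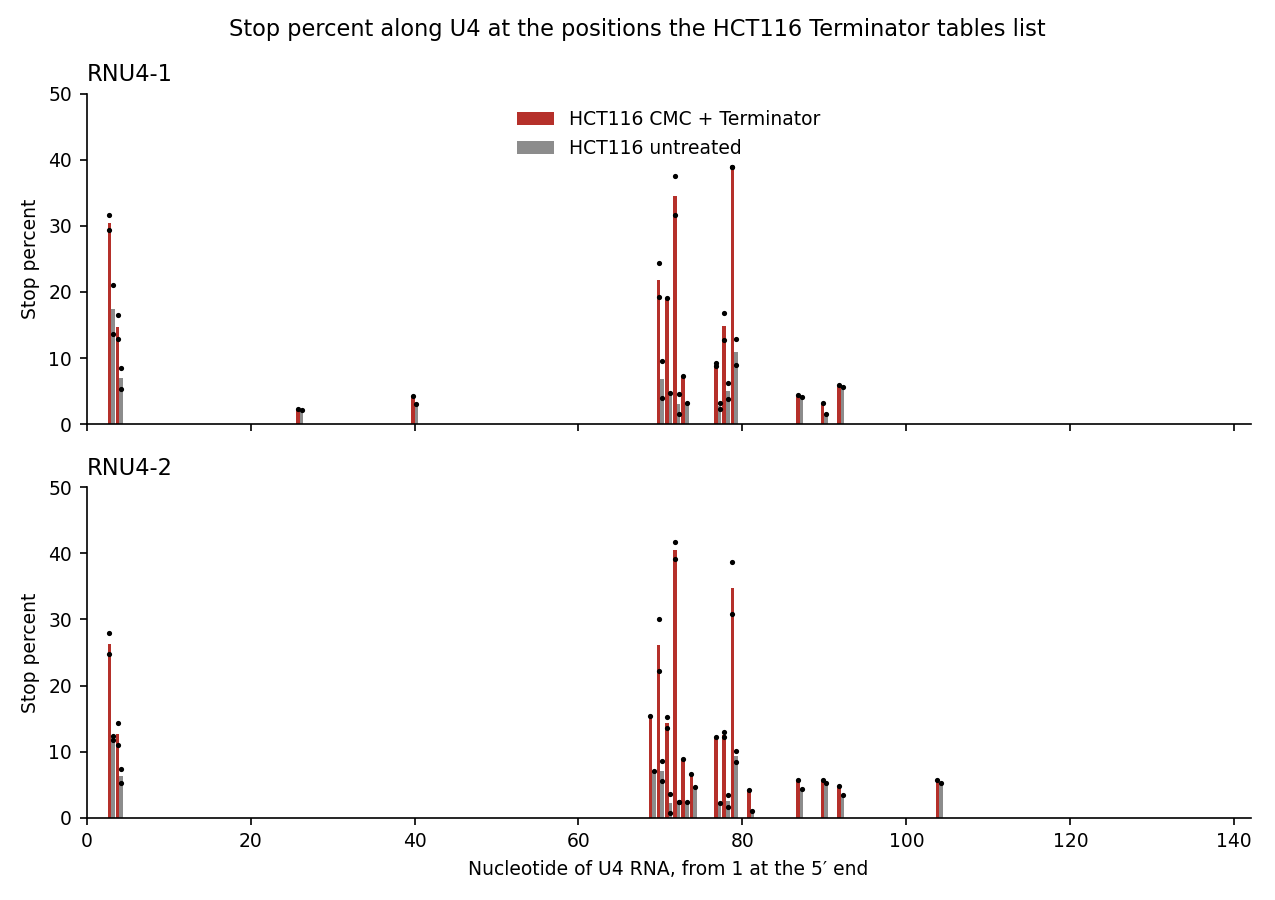
Stop percent (vertical axis) at every position of RNU4-1 and RNU4-2 that the HCT116 Terminator tables list, by nucleotide of the RNA (horizontal axis). Bars are means and dots single libraries, red for CMC plus Terminator and grey for untreated; the tallest red bars are at nucleotides 72 and 79, with stop percents of 34.5 to 40.4 against 2.36 to 10.9 in untreated cells, and a position with no bar was not listed.

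Nucleotide 72 had the widest gap between treated and untreated HEK293T cells. In RNU4-1, stops were 49.0% and 48.8% of covering reads with CMC plus Terminator, 37.1% and 29.1% with CMC alone, and 2.83% and 7.30% in untreated cells. In RNU4-2 they were 53.9% and 48.6% with CMC plus Terminator, 30.0% and 24.7% with CMC alone, and 6.95% and 8.74% in untreated cells. In both copies every library with Terminator lay above every library with CMC alone. The libraries with CMC alone lay above every untreated library, which for the same replicate number is the condition of listing. The share of all positions with such an order is not given here. The untreated values rest on few reads, 2.25 to 9.75 stop reads of 79.4 to 113 covering reads, and the 95% Wilson interval of the lowest, 2.83%, ran from 0.697 to 8.77%. Such intervals, computed on reads rounded to whole numbers, cover counting error only, because several reads can stem from 1 molecule.

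At nucleotide 79, stops in RNU4-1 were 32.3% and 35.9% with CMC plus Terminator, 25.0% and 28.9% with CMC alone, and 15.0% and 6.94% in untreated HEK293T cells. In RNU4-2 they were 33.5% and 33.6% with CMC plus Terminator, 26.8% and 22.3% with CMC alone, and 13.6% and 13.5% in untreated cells. The 3 groups did not overlap in either copy, where treated above untreated of the same replicate number is again the condition of listing. The share of all positions with such an order is not given here. Of all 14326 positions tested, 22.2% had a change below 0 for CMC plus Terminator against CMC. In untreated cells nucleotide 79 lay above nucleotide 72, except in RNU4-1 of replicate 2. At nucleotide 4, stops in RNU4-1 were 29.9% and 24.1% with CMC plus Terminator, 24.3% and 27.3% with CMC alone, and 15.5% and 11.4% in untreated cells, and in RNU4-2 they were 20.2% and 16.6% with CMC plus Terminator, 24.3% and 23.5% with CMC alone, and 10.0% and 10.8% in untreated cells. Libraries with Terminator overlapped those with CMC alone at nucleotide 4 of RNU4-1 and lay below them in RNU4-2.

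**Figure D2:**
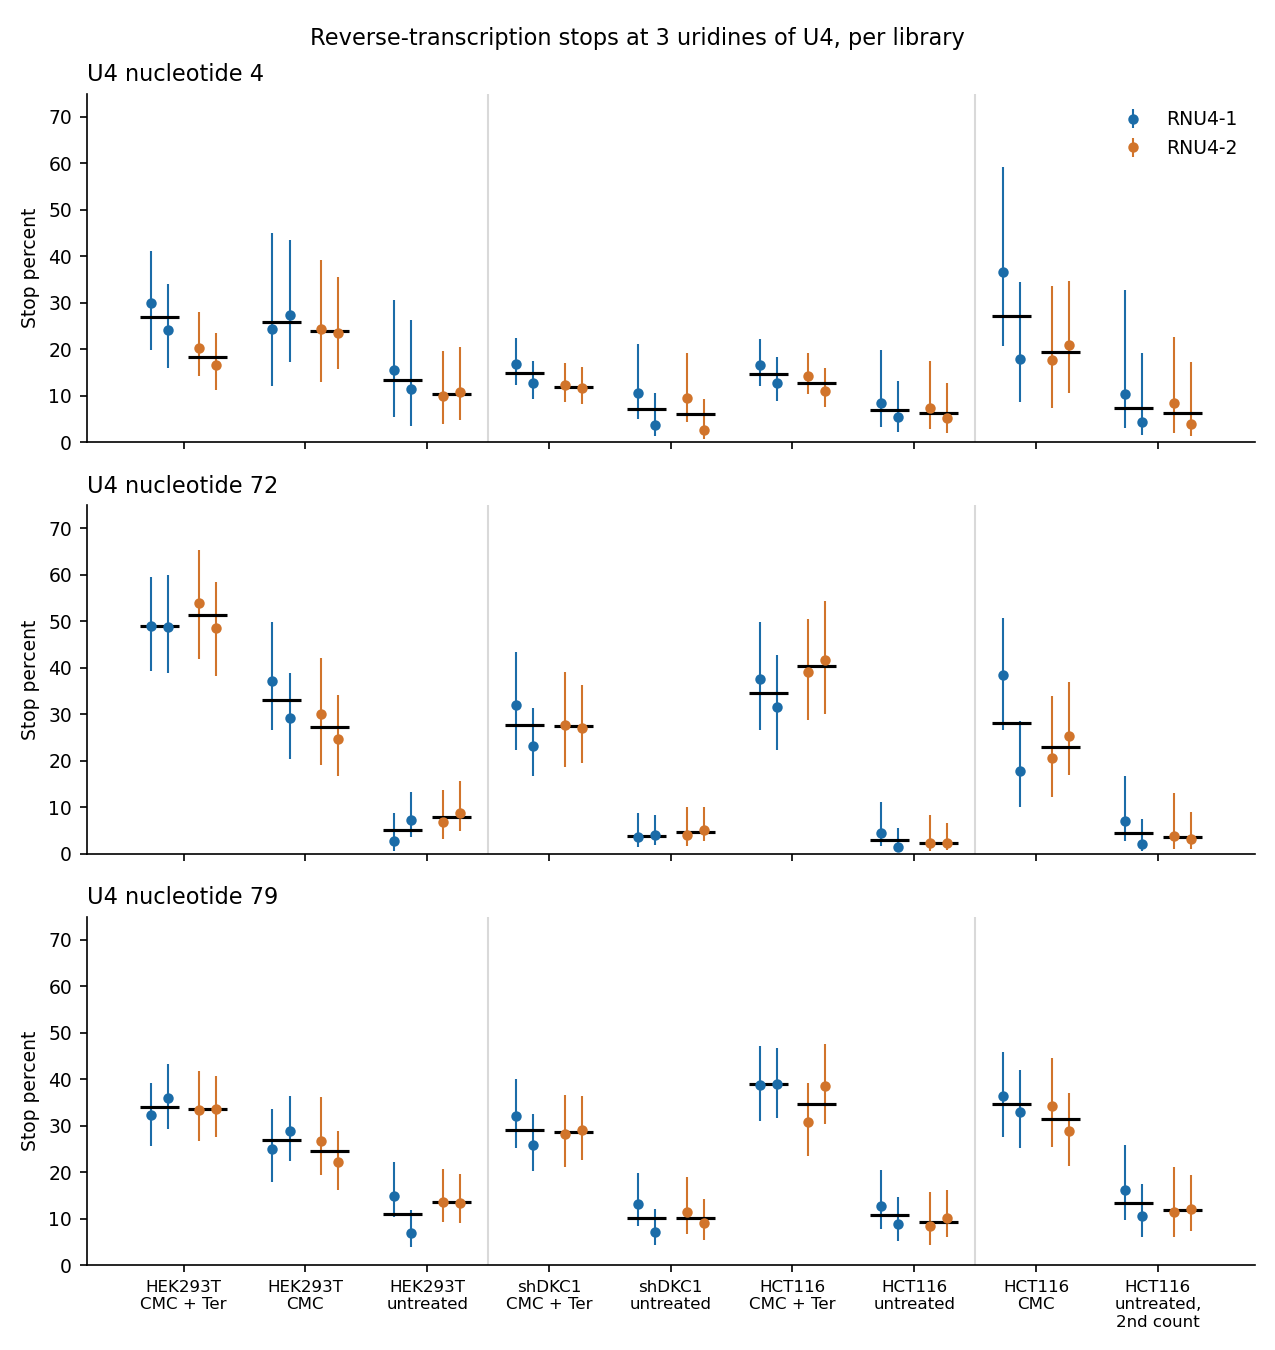
Stop percent (vertical axis) at nucleotides 4, 72 and 79 of U4 in each library, grouped by cell line and treatment (horizontal axis; Ter is Terminator). Points are libraries with 95% Wilson intervals of counting error, black lines are means of 2 libraries, blue is RNU4-1 and orange RNU4-2; at nucleotide 72 the treated libraries lie between 17.8 and 53.9% and the untreated libraries between 1.57 and 8.74%.

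Stops were tested as reads with the covering reads as denominator in edgeR's quasi-likelihood test, over all positions listed in every table of a fit, and a position was called at a Benjamini-Hochberg adjusted p under 0.05 with a change of at least 2-fold. The labels do not say whether replicates came from separate cultures, so p-values measure only the spread between these libraries. With CMC alone against untreated HEK293T cells, 2 of the 6 U4 uridines tested were called higher, beside 3.52% of all uridines tested. These were nucleotide 72 of RNU4-1, with a log2 change of 2.61 (SE 0.50, adjusted p 0.00855), and of RNU4-2, with 1.72 (SE 0.43, adjusted p 0.00477). The change at RNU4-1 nucleotide 72 was the highest of the 14326 positions tested. It was 2.12 without untreated replicate 1 and 3.69 without untreated replicate 2, and it was called with each 1 library left out. Nucleotides 79 and 4 did not pass, with log2 changes of 0.80 to 1.31. Neither copy was called at nucleotide 72 with TMM scaling of stop reads in place of coverage (adjusted p 0.130 for RNU4-1 and 0.354 for RNU4-2). That setting called 3 of all 14326 positions higher. The call at RNU4-2 nucleotide 72 did not hold with DESeq2 (adjusted p 0.247), which called 97 of all 14326 positions higher. It did not hold either without CMC replicate 1 (adjusted p 0.0673), CMC replicate 2 (adjusted p 0.0645) or untreated replicate 1 (adjusted p 0.139), nor with library totals (adjusted p 0.113).

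The comparison of CMC plus Terminator with untreated HEK293T cells used the same untreated libraries. There, 4 of the 6 U4 uridines were called higher by edgeR's quasi-likelihood test, beside 18.3% of all uridines. Nucleotide 72 changed by 3.20 (SE 0.48, adjusted p 0.000461) in RNU4-1, the second highest of all positions tested, and by 2.65 (SE 0.40, adjusted p 7.95e-05) in RNU4-2. Nucleotide 79 changed by 1.63 (SE 0.28) in RNU4-1 and by 1.30 (SE 0.26) in RNU4-2, with adjusted p of 0.00716 and 0.000308. Without untreated replicate 2 the change at RNU4-1 nucleotide 72 was 4.27, and with TMM scaling nucleotide 72 changed by 2.36 and 1.56, called in both copies. RNU4-1 nucleotide 79 was not called without CMC plus Terminator replicate 2 (adjusted p 0.0678) and was at 1.05 without untreated replicate 2. RNU4-2 nucleotide 79 was at an adjusted p of 0.0592 with DESeq2 and at 0.75, under 2-fold, with TMM. Nucleotide 4 did not pass in either copy, at 1.13 and 0.91. It passed in both when stop reads were scaled to library totals in place of coverage, at 2.58 and 2.23, or with TMM, at 1.78 and 1.43. Library totals called 4907 of all 14326 positions higher, with a median change of 0.83, and TMM called 289. Of the 3 other bases tested, nucleotide 3 of RNU4-2 was called (1.30, adjusted p 0.0352, and 0.588 with DESeq2), and the share of all other bases called was 9.18%. Over the 6 U4 uridines the median log2 change was 1.46, beside 0.63 over all uridines tested.

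Adding Terminator to CMC was compared directly in HEK293T. None of the 6 U4 uridines was called in edgeR's quasi-likelihood test, and 1.33% of all uridines tested were called higher. At RNU4-2 nucleotide 72 the adjusted p was 0.0312 with a log2 change of 0.93 (SE 0.28), just short of the 2-fold minimum. RNU4-1 nucleotide 72 differed by 0.59 (SE 0.26, adjusted p 0.255), and nucleotide 79 by 0.32 and 0.50. At nucleotide 4 the difference was -0.07 in RNU4-1 and -0.41 in RNU4-2, and it turned to 1.17 and 0.93 when stop reads were scaled to library totals and to 0.48 and 0.24 with TMM. Library totals also put RNU4-2 nucleotide 72 past 2-fold, at 1.03 (adjusted p 0.00108), and 2 of the 6 uridines were called with them, but so were 3501 of all 14326 positions, whose median difference was 0.69 with library totals and 0.22 with coverage. With a count of 0, the unadjusted p was under 0.05 at 3 U4 uridines, nucleotide 72 of both copies and nucleotide 79 of RNU4-2, beside 902 of all 5654 uridines higher at that level, and DESeq2 called 0 of the 6.

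**Figure D3:**
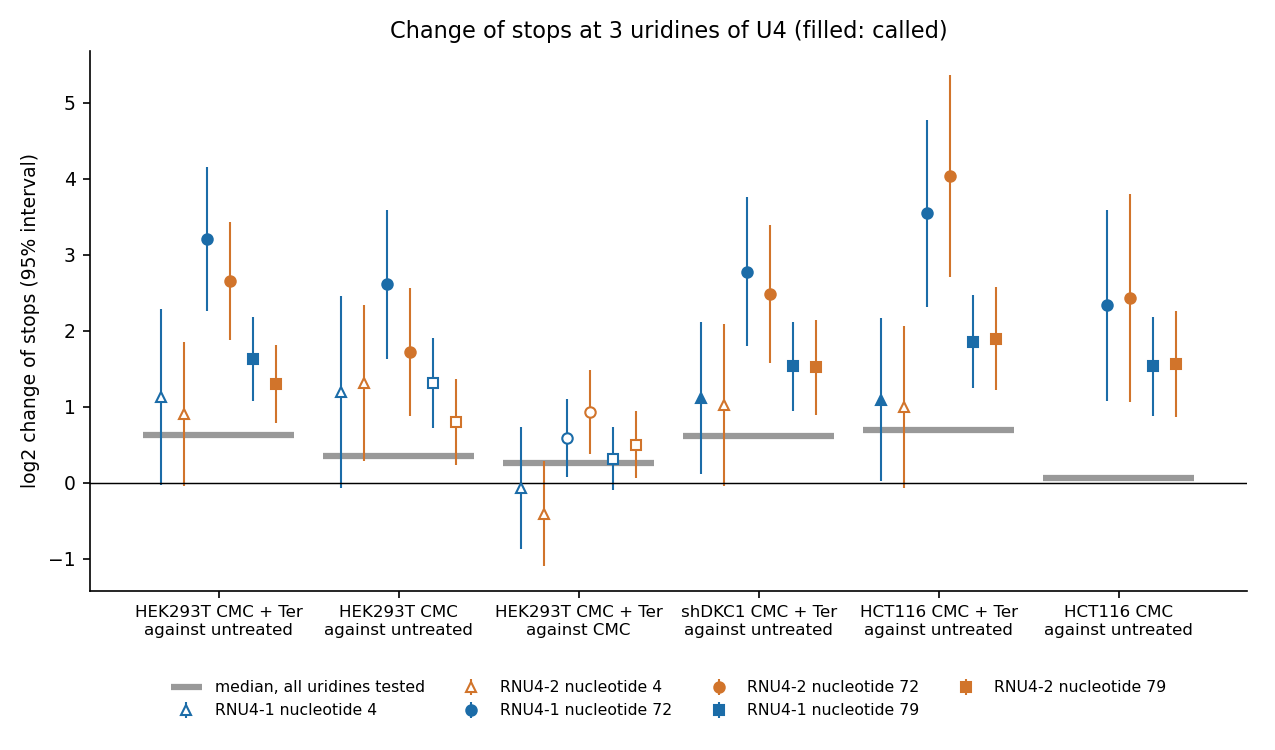
Log2 change of stops (vertical axis) at nucleotides 4, 72 and 79 of U4 in 6 comparisons (horizontal axis; Ter is Terminator). Symbols are edgeR estimates with 95% intervals, filled where called and open where not, and grey bars are the medians over all uridines tested, 0.07 to 0.70; nucleotide 72 has the highest symbol in each comparison, from 0.93 to 4.03.

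HCT116 and shDKC1 cells were compared with their own untreated libraries after CMC plus Terminator. At nucleotide 72 of RNU4-1, stops were 31.9% and 23.3% with treatment against 3.57% and 3.97% without in shDKC1 cells, and 37.5% and 31.6% against 4.55% and 1.57% in HCT116 cells. At nucleotide 72 of RNU4-2 they were 27.8% and 27.1% against 4.08% and 5.23% in shDKC1 cells, and 39.2% and 41.7% against 2.38% and 2.34% in HCT116 cells. Treated and untreated libraries were far apart in both cell populations. The treated shDKC1 libraries lay below the treated HCT116 libraries in RNU4-2 and overlapped them in RNU4-1. The share of all positions with such an order is not given here, and neither copy was called in the direct comparison described below.

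At nucleotide 79 of RNU4-1, stops were 32.2% and 25.9% with treatment against 13.2% and 7.26% without in shDKC1 cells, and 38.8% and 39.0% against 12.8% and 8.97% in HCT116 cells. At nucleotide 79 of RNU4-2 they were 28.3% and 29.1% against 11.4% and 9.04% in shDKC1 cells, and 30.8% and 38.7% against 8.42% and 10.1% in HCT116 cells. Treated shDKC1 libraries were below treated HCT116 libraries at this nucleotide in both copies, which are not independent. The share of all positions with such an order is not given here. Compared directly, as described below, the unadjusted p was 0.0621 in RNU4-1 and 0.233 in RNU4-2 by edgeR's quasi-likelihood test. At nucleotide 4 the treated libraries gave 16.8% and 12.8% in shDKC1 and 16.6% and 12.8% in HCT116 for RNU4-1, against 10.5% and 3.80% in untreated shDKC1 and 8.51% and 5.41% in untreated HCT116. For RNU4-2 nucleotide 4 they gave 12.2% and 11.6% in shDKC1 and 14.3% and 11.1% in HCT116, against 9.52% and 2.67% in untreated shDKC1 and 7.41% and 5.26% in untreated HCT116. The populations overlapped at nucleotide 4.

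In edgeR's quasi-likelihood test, 8 of the 9 U4 uridines tested were called higher in treated shDKC1 cells, beside 21.9% of all uridines, and likewise 8 of 9 in treated HCT116 cells, beside 27% of all uridines. In shDKC1, nucleotide 72 changed by 2.78 (SE 0.50, adjusted p 2.27e-06) in RNU4-1 and by 2.49 (SE 0.46, adjusted p 1.96e-06) in RNU4-2, ranks 152 and 250 of 26153 positions. In HCT116 it changed by 3.54 (SE 0.62, adjusted p 5.79e-07) in RNU4-1 and by 4.03 (SE 0.68, adjusted p 5.51e-08) in RNU4-2, ranks 12 and 5. Nucleotide 79 changed by 1.53 and 1.52 in shDKC1 and by 1.86 and 1.90 in HCT116, all with an adjusted p of at most 3.84e-05. The uridine that did not pass in either population was nucleotide 4 of RNU4-2, at 1.02 in shDKC1 and 1.00 in HCT116. RNU4-1 nucleotide 4 passed narrowly (adjusted p 0.0358 in shDKC1 and 0.0493 in HCT116) and did not with DESeq2 (adjusted p 0.232 and 0.234). With library totals in place of coverage, nucleotide 4 changed by 3.15 and 3.04 in shDKC1 and by 3.19 and 3.14 in HCT116, and was called in both copies. The share of all positions called with library totals in these comparisons is not given here. Of the 4 other U4 bases tested, 2 were called in shDKC1 and 3 in HCT116, beside 18.4% and 23.7% of all other bases. The median log2 change of the 9 U4 uridines was 1.62 in shDKC1 and 1.88 in HCT116, beside 0.62 and 0.70 over all uridines. Leaving out 1 library in effect removes its treated and untreated pair from that population, so each estimate then rests on the other pair. Without 1 library at a time, nucleotide 72 changed by 2.51 to 3.12 in RNU4-1 and 2.35 to 2.73 in RNU4-2 of shDKC1. For HCT116 the ranges were 3.01 to 4.23 and 3.97 to 4.08. RNU4-1 nucleotide 4 fell under 2-fold in some of these fits, at 0.67 to 1.735 in shDKC1 and 0.96 to 1.23 in HCT116.

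Nucleotides 70 and 71 are uridines of the same run as nucleotide 72, which spans nucleotides 70 to 73. At nucleotide 70 of RNU4-1, stops were 27.3% and 17.6% with treatment against 6.42% and 4.03% without in shDKC1, and 24.3% and 19.2% against 9.64% and 3.94% in HCT116. At nucleotide 70 of RNU4-2 they were 24.4% and 13.5% against 6.19% and 5.37% in shDKC1, and 30.0% and 22.2% against 8.54% and 5.51% in HCT116. Treated and untreated libraries did not overlap, where treated above untreated of the same replicate number is the condition of listing. All 4 changes, 1.62 to 2.07 on the log2 scale, were called, although coverage with treatment was only 36 to 91 reads. These calls depend on the scaling. With library totals in place of coverage, nucleotide 70 changed by 1.32 in RNU4-1 (still called) and 0.81 in RNU4-2 (adjusted p 0.174) of shDKC1, and by 0.86 (adjusted p 0.166) and 0.83 (adjusted p 0.170) in HCT116. With TMM scaling all 4 calls were lost, at 0.36 to 0.90 with adjusted p of 0.105 to 0.570, and DESeq2 lost that of RNU4-2 in shDKC1 (adjusted p 0.0786). In HEK293T, nucleotide 70 of RNU4-1 reached 22.4% and 18.5% with CMC plus Terminator and 24.4% and 15.4% with CMC alone, against 12.5% and 13.1% in untreated cells, and it was not tested there because only 1 library reached 10 stop reads.

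At nucleotide 71 of RNU4-2, stops were 18.5% and 12.7% with treatment against 2.06% and 0.68% without in shDKC1, and 15.2% and 13.5% against 3.61% and 0.794% in HCT116. The untreated values rest on 1 to 3 stop reads each, so the log2 changes of 3.46 (SE 0.89) in shDKC1 and 2.72 (SE 0.84) in HCT116 are imprecise, though both were called. In HCT116 the change was 1.83 with library totals and 1.38 with TMM, where it was no longer called (adjusted p 0.127), and in shDKC1 it was 2.87 and 2.47, both called. Nucleotide 73 of the same run was listed in 5 tables for each copy and did not exceed 16.2%. The adenosine at nucleotide 78, 5′ of nucleotide 79, gave 16.7% and 10.3% with treatment against 4.96% and 4.19% without in RNU4-1 of shDKC1, and 12.8% and 16.8% against 6.25% and 3.76% in HCT116. In RNU4-2 it gave 9.78% and 12.6% against 4.17% and 3.95% in shDKC1, and 12.9% and 12.2% against 3.41% and 1.60% in HCT116. It was called in both copies and both populations by edgeR's quasi-likelihood test (log2 changes of 1.48 to 2.32), but with DESeq2 it was not called in RNU4-1 of either population or in RNU4-2 of shDKC1 (adjusted p 0.0766 to 0.179), and with TMM not in RNU4-2 of shDKC1 (adjusted p 0.0946). In every one of these treated libraries nucleotide 78 stayed below nucleotide 79.

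HCT116 cells treated with CMC alone come from tables with expected counts and lower totals. At nucleotide 72, stops were 38.4% and 17.8% with CMC against 7.01% and 2.14% in untreated cells for RNU4-1, and 20.7% and 25.4% against 3.84% and 3.20% for RNU4-2. At nucleotide 79 they were 36.3% and 33.0% against 16.2% and 10.5% for RNU4-1, and 34.3% and 28.8% against 11.6% and 12.2% for RNU4-2. Treated libraries were above untreated libraries, which for libraries of the same replicate number is the condition of listing and not a result. The replicates of RNU4-1 nucleotide 72 were the furthest apart. In this comparison stop reads were scaled to their sum per library, and edgeR's quasi-likelihood test called 4 of the 5 U4 uridines tested, beside 0.7% of all uridines. Nucleotide 72 changed by 2.34 (SE 0.64, adjusted p 0.0103) in RNU4-1 and by 2.43 (SE 0.70, adjusted p 0.0158) in RNU4-2, ranks 4 and 2 of 20060 positions. Nucleotide 79 changed by 1.53 (SE 0.33, adjusted p 0.00314) in RNU4-1 and by 1.56 (SE 0.35, adjusted p 0.0103) in RNU4-2. Nucleotide 97 of RNU4-1, at 7.49% and 7.46% with CMC against 5.25% and 6.35% without, did not pass (0.62). The calls depend on the model. DESeq2 called 0 of the 5, beside 13 of all 20060 positions called higher. The fit with no replicate block called only nucleotide 79 of both copies, beside 39 of all 20060 positions. Fits without 1 library at a time also need the fit with no replicate block. In those that tested it, nucleotide 72 changed by 1.78 to 3.07 in RNU4-1 and by 2.33 to 2.56 in RNU4-2. Nucleotide 79 changed by 1.30 to 1.76 and by 1.38 to 1.84. With covering reads as denominator, an alternative chosen after seeing the data, nucleotides 72 and 79 of both copies were called, at 1.35 to 2.75.

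Across the cell lines, the stop percents at nucleotide 72 with CMC plus Terminator were 48.6 to 53.9 in HEK293T, 23.3 to 31.9 in shDKC1 and 31.6 to 41.7 in HCT116, and with CMC alone 24.7 to 37.1 in HEK293T and 17.8 to 38.4 in HCT116. At nucleotide 79 they were 32.3 to 35.9, 25.9 to 32.2 and 30.8 to 39.0 with CMC plus Terminator. These values stand side by side without a test, because the HEK293T and HCT116 libraries come from separately made tables with different counting. Within libraries, nucleotide 72 lay above nucleotide 79 in 8 of 8 pairs of library and copy in HEK293T, in 0 of 4 in shDKC1, in 2 of 4 in HCT116 with CMC plus Terminator and in 1 of 4 in HCT116 with CMC alone. The copies are not independent, so these pairs are not replicates. Some margins were small, 0.28 points in RNU4-1 of HEK293T CMC replicate 2 and -0.27 to -2.65 points in shDKC1. The order of the nucleotides was not tested.

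The difference between the responses of shDKC1 and HCT116 cells was tested as an interaction, which asks whether less dyskerin changes the stops. The hairpin could be checked only weakly: DKC1 had 2 and 1 listed positions in the shDKC1 tables, with a median of 5.5 and 2 covering reads in untreated cells, and 2 and 3 in the HCT116 tables, with 12 and 14. None of the 9 U4 uridines was called lower or higher in shDKC1 by edgeR's quasi-likelihood test, DESeq2 called 0 as well, and over all uridines 0.0311% were called lower. At an unadjusted p under 0.05, 1 of the 9 was lower, beside 310 of 9660 uridines tested. This was nucleotide 72 of RNU4-2, with a difference of -1.55 (SE 0.82, 95% interval -3.16 to 0.06, unadjusted p 0.0434) and an adjusted p of 1.00. RNU4-1 nucleotide 72 differed by -0.76 (interval -2.33 to 0.80), nucleotide 79 by -0.33 (-1.17 to 0.51) in RNU4-1 and -0.38 (-1.30 to 0.54) in RNU4-2, and nucleotide 4 by 0.02 in both copies with intervals of -1.44 to 1.49 and -1.49 to 1.53. The sign at nucleotide 4 changed in both copies with library totals or no replicate block, and in RNU4-2 alone with TMM. The median difference was -0.26 over the 9 U4 uridines and -0.08 over all uridines.

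**Figure D4:**
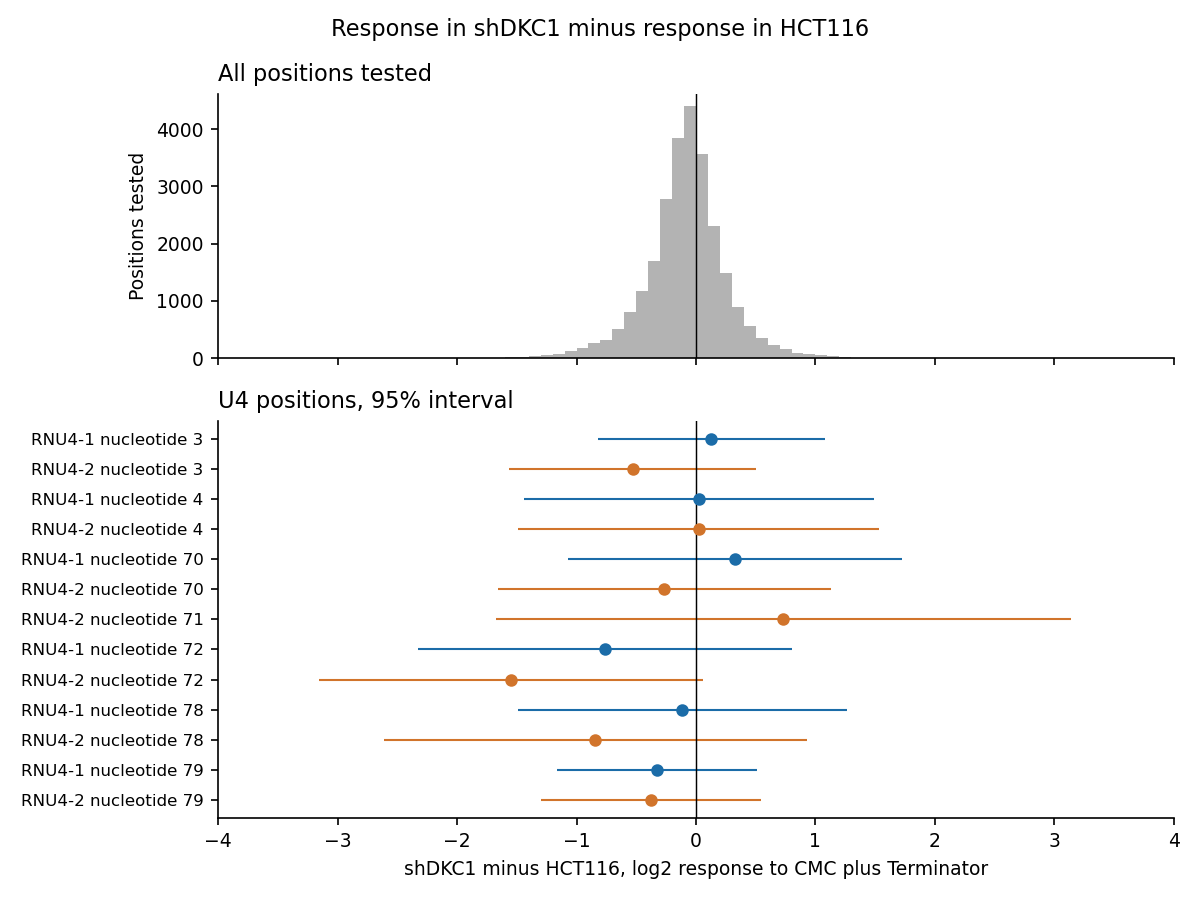
Response of stops to CMC plus Terminator in shDKC1 minus that in HCT116 (horizontal axis, log2). The upper panel counts all 26153 positions tested in bins of the difference, and the lower panel gives the 13 U4 positions tested with 95% intervals, blue for RNU4-1 and orange for RNU4-2; every U4 interval includes 0, and the lowest estimate is -1.55 at nucleotide 72 of RNU4-2.

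Because untreated stop reads are few, the CMC plus Terminator libraries were also set directly against each other, shDKC1 against HCT116, without their untreated libraries, a comparison chosen after seeing the data. RNU4-2 nucleotide 72 differed by -0.56 (SE 0.28, 95% interval -1.11 to 0.0021), RNU4-1 nucleotide 72 by -0.38 (interval -0.94 to 0.19), RNU4-1 nucleotide 79 by -0.43 (interval -0.90 to 0.026) and RNU4-2 nucleotide 79 by -0.26 (interval -0.70 to 0.17). All had an adjusted p of 1 in edgeR's quasi-likelihood test. The lowest U4 value was at RNU4-2 nucleotide 70, at -0.57 (interval -1.46 to 0.31). At the other uridines the differences were -0.10 (RNU4-2 nucleotide 4), 0.056 (RNU4-2 nucleotide 71), -0.019 (RNU4-1 nucleotide 4) and -0.041 (RNU4-1 nucleotide 70). Of all 26153 positions, 0 were called in either direction (0%), 332 were lower and 53 higher at an unadjusted p under 0.05, and the median difference was -0.04.

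Coverage along U4 differed in the libraries with CMC plus Terminator. These also had the additional adapter and the restriction enzyme step, so the difference cannot be split by step. Covering reads at nucleotide 4 of RNU4-1, as a percent of those at nucleotide 79, were 37.4 and 47.2 with CMC plus Terminator, 20.4 and 26.4 with CMC alone, and 20.1 and 18.6 in untreated HEK293T cells. They were 140 and 137 with CMC plus Terminator against 41.9 and 44.1 in untreated shDKC1, and 152 and 127 against 43.1 and 51.0 in untreated HCT116. With CMC alone in HCT116 they were 20.9 and 28.2, against 23.0 and 29.8 in the second count of untreated cells. Libraries with Terminator lay above all others of their cell population that were counted in the same way. RNU4-2 showed the same order, with 180 and 152 in shDKC1 against 60.0 and 45.2 untreated. In HCT116 it had 184 and 175 against 56.8 and 55.1 untreated. Untreated HCT116 libraries gave 43.1 and 51.0 for RNU4-1 beside the Terminator libraries but 23.0 and 29.8 in the second count. The ratio thus moved with the counting, so CMC alone cannot be set against CMC plus Terminator in HCT116. The bases around nucleotide 4 are shared with 7 other listed positions and those around nucleotide 79 with none. The part of such sharing in the ratio was not tested. No test was made of this ratio, and its part in the stop percents at nucleotides 3 and 4 was not tested.

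**Figure D5:**
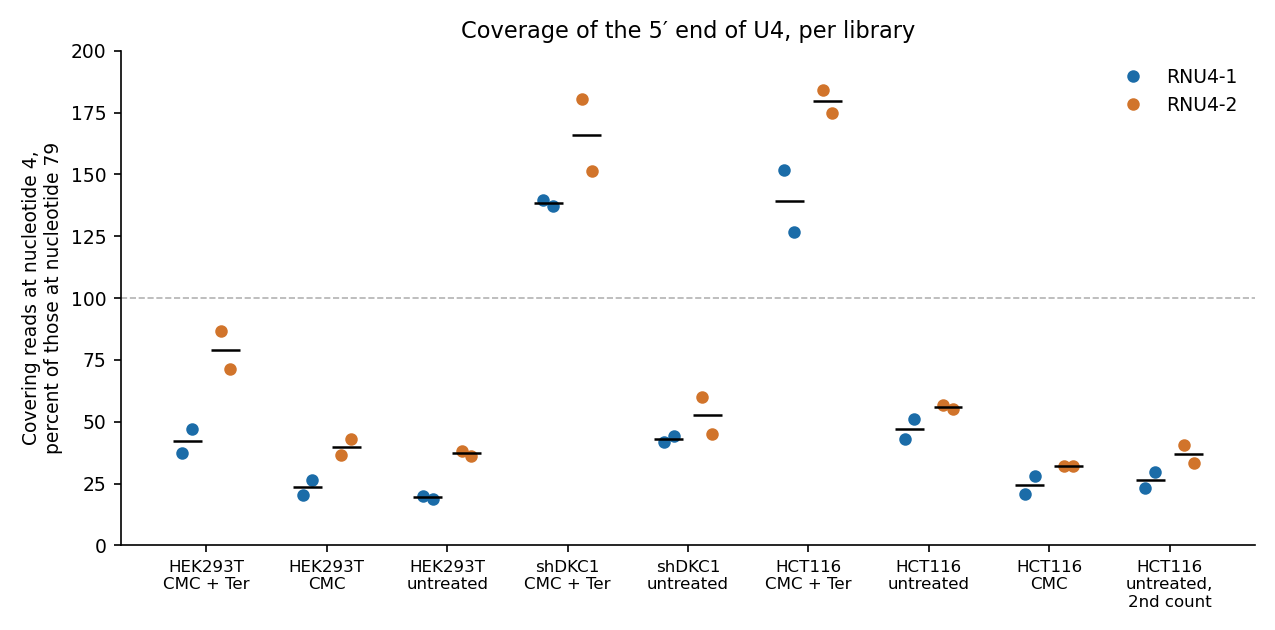
Covering reads at nucleotide 4 as a percent of those at nucleotide 79 (vertical axis) in each library, by cell line and treatment (horizontal axis; Ter is Terminator). Points are libraries, black lines are means of 2 libraries, blue is RNU4-1, orange RNU4-2 and the dashed line marks equal coverage; the HCT116 and shDKC1 libraries with Terminator lie at 127 to 184 and all untreated libraries at or below 60.0.

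Nucleotide 3, a cytidine next to the 5′ end, was listed in every table. In RNU4-1 its stop percent was 29.5 and 34.6 with CMC plus Terminator, 32.5 and 22.8 with CMC alone, and 23.6 and 14.9 in untreated HEK293T, 32.2 and 28.9 against 19.2 and 14.3 in shDKC1, and 29.4 and 31.6 against 13.6 and 21.1 in HCT116 with CMC plus Terminator. In RNU4-2 it was 18.6 and 25.1 with CMC plus Terminator, 20.6 and 14.1 with CMC alone, and 7.93 and 8.51 in untreated HEK293T, 25.7 and 22.1 against 13.8 and 17.6 in shDKC1, and 28.0 and 24.7 against 11.8 and 12.3 in HCT116. In these untreated libraries nucleotide 3 lay above nucleotide 72, except in RNU4-2 of HEK293T replicate 2. RNU4-2 nucleotide 3 was called higher in HCT116 (log2 change 1.11, adjusted p 0.00678 in edgeR's quasi-likelihood test; 0.104 with DESeq2) but did not pass in shDKC1 (0.57), and RNU4-1 nucleotide 3 reached no 2-fold change in either (0.89 in shDKC1 and 0.76 in HCT116). With library totals in place of coverage, nucleotide 3 changed by 2.77 in shDKC1 and 2.65 in HCT116 for RNU4-1 and by 2.49 in shDKC1 and 3.11 in HCT116 for RNU4-2, all called. The share of all positions called with library totals is not given here. In HCT116 with CMC alone it reached 45.2% and 39.7% in RNU4-1, against 13.9% and 23.8% untreated, on 14.5 and 28.4 covering reads.

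Other spliceosomal RNAs gave a scale for U4. In the Terminator comparisons, 92 of 215 uridines of spliceosomal RNAs other than U4 were called higher in shDKC1 and 85 of 215 in HCT116. The share of all uridines called higher was 21.9% in shDKC1 and 27% in HCT116. Median log2 changes were 0.95 and 0.75, beside the U4 medians of 1.62 and 1.88. These 215 uridines lie in 65 genes and pseudogenes, many of them near-identical copies. U5 is the spliceosomal RNA that contacts the exons, and nucleotide 43 of RNU5A-1 was taken as its tested uridine with the highest stop percent in treated HCT116. It had 43.8% ± 11.3 with treatment against 9.36% ± 2.48 without in shDKC1, and 43.9% ± 8.64 against 3.88% ± 0.18 in HCT116 (SD, n = 2 each). Its log2 changes of 2.20 and 3.48 and its difference between the populations, -1.28 (SE 0.84, adjusted p 1.00 by edgeR's quasi-likelihood test), stand beside 2.49 to 2.78, 3.54 to 4.03 and -1.55 to -0.76 at U4 nucleotide 72. The choice used treated HCT116, 1 side of this difference. The treated stop percents of RNU5A-1 nucleotide 43 were alike in the populations, and its untreated ones were not. RNU1-1 nucleotide 6, in the part of U1 that pairs with the 5′ splice site, changed by 0.96 in shDKC1 and 1.00 in HCT116, short of 2-fold. The uridines taken in the same way for U2 and U6 lie in pseudogenes on the X chromosome. Nucleotide 96 of RNU2-26P changed by 0.36 in shDKC1 and 0.25 in HCT116 and was not called, and nucleotide 40 of RNU6-98P changed by 1.22 in shDKC1, not called, and by 1.82 in HCT116, called. In HEK293T, 8 of 9 uridines of other spliceosomal RNAs were called with CMC plus Terminator and 0 of 9 with CMC alone. Of the proteins of the U4/U6 and tri-snRNP particles, 6 genes had 20 uridines tested in HEK293T, 8 of them called higher with CMC plus Terminator and 0 with CMC alone, against 18.3% and 3.52% of all uridines. Of 18 other bases of these proteins, 2 were called with CMC plus Terminator in HEK293T, against 9.18% of all other bases. With Terminator, 1 of 2 uridines tested was called in shDKC1 and 0 of 2 in HCT116.

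U4 levels were compared between untreated shDKC1 and HCT116 cells through covering reads summed over the positions listed in every Terminator table. A read that covers several of these positions enters the sum several times, and the test takes the sums as counts. RNU4-1 had 587 and 802 summed covering reads in shDKC1 against 467 and 677 in HCT116, and RNU4-2 614 and 916 against 537 and 793. Replicates of each population differed more than the populations did, and the ranges overlapped. The log2 difference was 0.23 (SE 0.16, adjusted p 0.879) for RNU4-1 and 0.15 (SE 0.16, adjusted p 0.946) for RNU4-2 in edgeR's quasi-likelihood test, and neither was called, beside 0.139% of 2158 genes called higher and 0.556% called lower. In bulk RNA, a change in the share of cells and a change in RNA per cell cannot be told apart. Scaled to library totals as RPM, covering reads at nucleotide 79 of both copies ran from 3.55 to 6.08 in untreated shDKC1 and from 3.48 to 4.64 in untreated HCT116.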

How the data were processed

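Per the submitters' processing notes, cutadapt 2.8 and STAR, whose version is not given in the sources used here, were used with build hg38. The deposited tables set a treated library beside an untreated one, with stop reads and covering reads as whole counts in the HCT116 and shDKC1 Terminator tables and in the others as fractional, expected counts. The authors also deposited stop reads as RPM, from which library totals were computed. U4 positions were numbered on GENCODE 29 transcripts, and all 108 listed bases matched. Expected counts were rounded. edgeR 4.0.16 in R 4.3.3 fitted stop reads with covering reads as offset (the HCT116 tables without Terminator with summed stop reads), treatment, and a block for the treated and untreated libraries of 1 replicate number, which each table sets side by side. Deviations of same-numbered libraries correlated at 0.0575 to 0.353 in HEK293T, 0.154 in HCT116 and 0.321 in shDKC1 with Terminator, and 0.574 in HCT116 with CMC alone. Positions listed in every table of a fit numbered 21266 for HEK293T, 30328 for HCT116 with shDKC1 and 39679 for HCT116 with CMC alone, and those with 10 or more stop reads in 2 or more libraries were tested. The controls of the HCT116 tables with CMC alone were taken as the untreated HCT116 libraries counted again: same-numbered controls shared 22.1 and 21.7% of stop values, others 2.92 and 3.5%. Standard errors are not below those of Poisson counts. The fits were also run on simulated counts with known changes. Those counts had a fixed dispersion, no replicate pairing and no listing rule, so they do not show how the fits handle these features. DESeq2 1.42.0, used as an alternative, adjusted p-values over the same positions. Named were U4 uridines listed in every table of a fit, and other U4 bases that were called or had a mean stop percent of at least 10 with treatment, where listed in every library of a fit. Members and lists were chosen with earlier results of these data known.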

Additional observations from a re-analysis of the deposited data

How the results depend on the processing

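Called U4 uridines are given by setting, beside the number of all positions called higher. With CMC alone in HEK293T (2 called), 1 was called with library totals, beside 66 of 14326 positions. TMM called 0, beside 3 of 14326, and DESeq2 1, beside 97. With the copies summed, 4 were called, beside 209 of 14322. With Terminator against CMC in HEK293T (0 called), 2 were called with library totals, beside 3501 of 14326, and 1 with passing reads as denominator, beside 298. With CMC alone in HCT116 (4 called), 0 were called with DESeq2, beside 13 of 20060, and 2 with no replicate block, beside 39. The number called over all positions thus moved with the setting too, and the causes were not tested. With no replicate block the counts were 3 and 4 in HEK293T (CMC, CMC plus Terminator) and 7 in both shDKC1 and HCT116 with Terminator. Without 1 library at a time they were 1 to 2 (CMC) and 3 to 4 (CMC plus Terminator) in HEK293T, 5 to 8 in both shDKC1 and HCT116 with Terminator, and 0 to 2 in HCT116 with CMC alone. Leaving out 1 library in the Terminator fit of shDKC1 and HCT116 in effect removes its pair, so both removals of a pair are 1 check. The difference between shDKC1 and HCT116 gave 0 calls in every setting tried. At nucleotide 72 it was negative in all of them, from -1.45 to -0.23 in RNU4-1 and from -1.87 to -0.56 in RNU4-2. It was also negative in all settings at nucleotide 79, from -0.58 to -0.036 in RNU4-1 and from -0.59 to -0.22 in RNU4-2. The same held at RNU4-2 nucleotides 3 (-0.78 to -0.15) and 78 (-1.36 to -0.14), which are not uridines. All settings use the same libraries, and 62.3% of all positions tested were below 0 in the reported fit. Of single positions over all settings, 865 values kept their direction and side of the threshold, 73 lost the call, 31 gained it and 44 changed sign, none of those called in the reported fit.

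Changes of sign for Terminator against CMC in HEK293T were 1.17 (RNU4-1 nucleotide 4), 0.93 (RNU4-2 nucleotide 4) and 0.23 (RNU4-2 nucleotide 87) with library totals, and 0.48 and 0.24 at nucleotide 4 with TMM. For shDKC1 minus HCT116 they were -0.038 and -0.10 at nucleotide 4 with library totals, -0.051 at nucleotide 4 and 0.025 at nucleotide 70 of RNU4-2 with TMM, -0.0199 in both copies at nucleotide 4 with no replicate block, -0.17 at RNU4-1 nucleotide 3 and 0.054 at RNU4-2 nucleotide 70 with the copies summed, and, with treated libraries compared directly, -0.0045, -0.019 and -0.041 at nucleotides 3, 4 and 70 of RNU4-1 and -0.10 at nucleotide 4 of RNU4-2. Without 1 library at a time, the ranges that crossed 0 for Terminator against CMC were -0.011 to 0.53 and -0.11 to 0.74 at nucleotide 3, -0.27 to 0.23 at RNU4-1 nucleotide 4 and -0.43 to 0.031 at RNU4-2 nucleotide 87. For shDKC1 minus HCT116 they were -0.21 to 0.31, -0.42 to 0.64, -0.17 to 0.75 and -0.63 to 0.48 at RNU4-1 nucleotides 3, 4, 70 and 78, and -0.64 to 1.09, -0.57 to 0.075 and -0.41 to 1.43 at RNU4-2 nucleotides 4, 70 and 71. The difference in RNU4-2 covering reads ran from -0.13 to 0.39, and that of RNU4-1 from 0.02 to 0.41.

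Scaling moved the median over all positions: with Terminator against untreated cells it was 0.53 with coverage, 0.83 with library totals and 0.02 with TMM in HEK293T, 0.57, 0.39 and -0.04 in shDKC1, and 0.64, 0.44 and -0.02 in HCT116. Depth limits the estimates at untreated nucleotides 71 and 72, with 1 to 10.4 stop reads a library, and at the 5′ end without Terminator.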
